A study of Mus musculus with 6 samples.

Results

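The genes described here are the extracellular and membrane part of the Wnt pathway: 19 Wnt ligands, 10 Frizzled receptors (Fzd), the co-receptors Lrp5 and Lrp6, the secreted inhibitors of the SFRP, DKK and WIF1 families, and Axin2, a gene that the pathway itself switches on. They were chosen by gene symbol among the protein-coding genes of the count table, with no use of measured values, which gave 42 of 54532 annotated genes. RNA was sequenced from 3 WT and 3 eIF5A-KO libraries of mouse primary myoblasts, the cultured progeny of muscle stem cells (satellite cells), labelled as proliferating and collected at day 2. The cells of both groups came from the hind-limb muscle of mice that the design text gives as 3 weeks old and also calls adult, by enzyme digestion and straining, and were grown in medium with 10% fetal bovine serum and FGF at 10 ug/ml. For the cultures the study names eIF5A-KO mice induced with tamoxifen and WT littermates. In its satellite cell experiments the eIF5A-KO genotype is Pax7CreERT2/+;eIF5A f/f. There the WT genotype is given as Pax7CreERT2/+ in one place and as Pax7+/+;eIF5A f/f in another. Pax7 drives the Cre in satellite cells, so other cells that come through digestion would keep the floxed alleles, and no sort is given for these cultures. The labels do not say that the 3 libraries of a group came from separate animals or cultures, so p-values measure only the spread between these samples, which may be technical.

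Wnt ligands are lipid-modified secreted proteins. In the canonical branch a ligand joins a Frizzled to LRP5 or LRP6, beta-catenin escapes degradation and acts with TCF/LEF factors on target genes such as Axin2. In the non-canonical branches ligands such as WNT5A and WNT11 act on cell polarity and movement without beta-catenin. SFRP proteins and WIF1 bind the ligands, whereas DKK1 and DKK2 bind the LRP co-receptors. In skeletal muscle, Wnt signals are known to act on satellite cells and on the fibroblastic cells around them.

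The deposited totals were 16281216 to 17734551 counts per library. Of all genes, 14679 had enough counts to be tested with edgeR's quasi-likelihood test, and 3 of them (0.0204%) had an adjusted p under 0.05 by the Benjamini-Hochberg method. Eif5a, the targeted gene, had 1603, 986 and 1238 CPM (counts scaled to library size) in the WT libraries and 1364, 1459 and 1059 in the libraries labelled eIF5A-KO (log2 fold change 0.02, 95% interval -0.51 to 0.55). The gene-wide Eif5a level thus does not separate the groups, exons were not measured apart here, and every direction given here compares the libraries as labelled. WT replicate 1 stood apart in its share of mitochondrial counts, 5.75% against 2.11 to 3.50% in the other libraries. Pax7, a marker of satellite cells, was at 12.9, 51.7 and 25.2 CPM in WT and at 13.0, 8.29 and 10.6 in eIF5A-KO. Myog, a factor of differentiation, was at 14.4, 76.3 and 32.2 CPM in WT and at 8.93, 5.09 and 2.10 in eIF5A-KO, lower without overlap (log2 fold change -2.94, unadjusted p 0.00119, adjusted p 0.362, edgeR). Both spread several-fold among the WT libraries, lowest in replicate 1 and highest in replicate 2. The myogenic genes Myod1 (264, 550 and 437 CPM), Cdh15, Des, Chrna1, Vcam1, Megf10 and Chodl had the same order in WT. Myf5, another myogenic factor, did not, at 12.1, 13.4 and 11.6 CPM in WT and 20.3, 11.7 and 8.62 in eIF5A-KO. In bulk RNA, fewer cells of a type and less RNA per cell cannot be told apart.

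Promoter sequences are shown for 3 members. They include Axin2, the readout of canonical signalling, and Wnt9a, the tested member whose groups did not overlap. The last is Wnt11, for which the window with a TCF/LEF match was chosen. The sequences are RefSeq's, on GRCm38.p6, from 250 bases before to 50 bases after the annotated start, and 28 of the 42 members matched that table with 31 windows. Capitals mark matches to either of the motifs searched on both strands. The first was the TCF/LEF core, CTTTGAT, which reads in the windows as ATCAAAG where it lies on the other strand. The second was the E-box, bound by myogenic factors of the MyoD family among other factors, whose letters CANNTG are the same on both strands. The windows are Axin2 at chr11:108920099-108920398, Wnt9a at chr11:59306680-59306979 and Wnt11 at chr7:98834862-98835161, all on the plus strand.
Axin2: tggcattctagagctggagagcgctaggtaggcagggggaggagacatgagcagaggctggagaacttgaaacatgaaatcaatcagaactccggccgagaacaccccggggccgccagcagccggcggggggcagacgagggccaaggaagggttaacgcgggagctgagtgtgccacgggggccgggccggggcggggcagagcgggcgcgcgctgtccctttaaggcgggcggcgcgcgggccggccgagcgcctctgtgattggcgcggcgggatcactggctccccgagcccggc
Wnt9a: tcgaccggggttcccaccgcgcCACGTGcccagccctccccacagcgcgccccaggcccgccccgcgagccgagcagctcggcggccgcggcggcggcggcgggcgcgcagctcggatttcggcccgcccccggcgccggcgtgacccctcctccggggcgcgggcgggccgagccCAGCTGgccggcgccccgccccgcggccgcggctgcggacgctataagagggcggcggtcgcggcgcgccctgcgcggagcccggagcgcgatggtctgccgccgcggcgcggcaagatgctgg
Wnt11: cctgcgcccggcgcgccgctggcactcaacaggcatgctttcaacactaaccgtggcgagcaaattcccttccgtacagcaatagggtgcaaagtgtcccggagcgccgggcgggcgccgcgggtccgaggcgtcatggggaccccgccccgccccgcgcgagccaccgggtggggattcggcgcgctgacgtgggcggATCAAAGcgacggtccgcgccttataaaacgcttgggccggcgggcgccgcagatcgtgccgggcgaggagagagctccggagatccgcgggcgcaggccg
The Wnt9a window holds 2 E-box matches, the Wnt11 window shown 1 TCF/LEF match that begins at position -51 from the start, and the Axin2 window neither motif. Another Wnt11 window, at chr7:98838595-98838894 and not shown, holds 0 TCF/LEF matches and 1 E-box match. Among the 31 member windows 2 held the TCF/LEF core (6.45%, the other being 1 of 3 Wnt5b windows) and 21 an E-box (67.7%), beside 3.73% and 72.3% of all 32851 windows. A match is a run of letters, not a measured binding site.

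Of the 42 members, 25 passed the filter on low counts: 8 Wnt ligands, 9 Frizzled receptors, both LRP co-receptors, 3 SFRP family members, 2 DKK family members and Axin2. The other 17 had at most 64 counts over all 6 libraries, and 4 of them (Wnt3, Wnt3a, Wnt8b and Dkk4) had none. None of the 25 had an adjusted p under 0.05 (adjusted p 0.794 to 0.988, edgeR) and none an unadjusted p under 0.05 in either direction, where 6.76% of all tested genes did, with 2.74% for a higher and 4.02% for a lower level in eIF5A-KO. The lowest unadjusted p was 0.0686, for Wnt2b. All 25 intervals of the log2 fold change included 0, and 18 of them lay within -1 to 1, so for those 18 a larger change lies outside the 95% interval. For the other 7 members a larger change lies within the interval. The median log2 fold change of the 25 was 0.18, with 20 above 0 (80.0%), beside a median of -0.01 and 48.3% above 0 over all tested genes. By library, the median over these members of log2(CPM + 0.5) minus the WT mean was 0.06, 0.10 and -0.05 in WT. In eIF5A-KO it was 0.15, 0.31 and 0.08, so replicate 3 lay below WT replicate 2 and the groups overlapped. These medians describe the members, and no test was made of them.

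**Figure D1:**
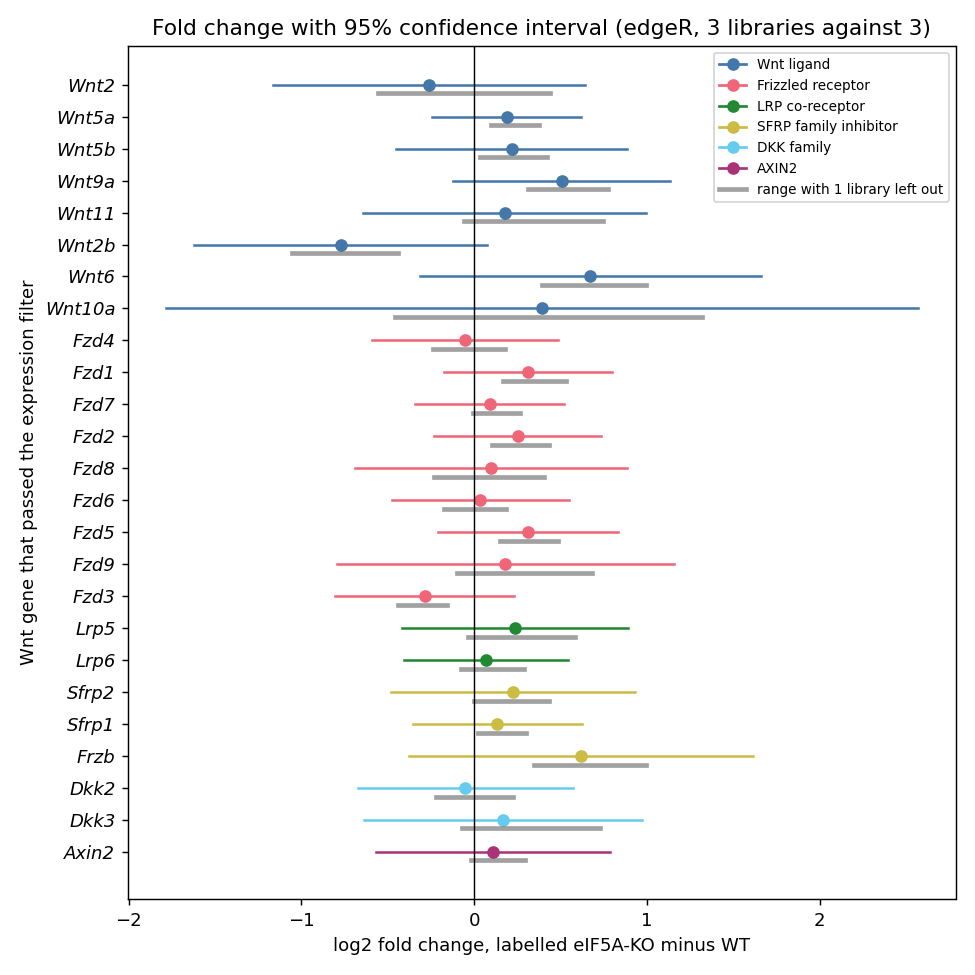
Log2 fold change, eIF5A-KO minus WT, of each tested member (point) with its 95% interval from edgeR (thin line), coloured by role. Grey bars give the range when 1 library is left out, and all 25 intervals include 0.

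Among the ligands, Wnt2, Wnt5a, Wnt5b, Wnt9a and Wnt11 were the most abundant per length. Levels between genes are given as FPKM, fragments scaled to gene length and library size, as deposited. Wnt2 and Wnt5a together made 51.0% of the summed ligand FPKM.

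Wnt2, a ligand of the canonical branch, was at 8.66, 2.68 and 3.40 FPKM in WT replicates 1 to 3 and at 3.87, 4.67 and 3.80 in eIF5A-KO replicates 1 to 3. WT replicate 1 was far above the 5 other libraries, and the groups overlapped (log2 fold change -0.26, SE 0.40). Without WT replicate 1 the log2 fold change was 0.44, the only 1 of 16 alternatives in which its sign changed. Wnt5a, the main non-canonical ligand, was at 3.72, 2.70 and 2.64 FPKM in WT and at 3.26, 3.60 and 3.53 in the libraries labelled eIF5A-KO (log2 fold change 0.19, SE 0.19). Its highest and lowest values were both WT. Wnt5b, its close paralog, was at 2.88, 1.68 and 2.36 FPKM in WT and 2.97, 3.22 and 1.89 in eIF5A-KO (log2 fold change 0.22, SE 0.30), and the groups overlapped.

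Wnt9a, a ligand gene at chr11:59306928-59333552 on the plus strand of mm10, was the only tested member whose groups did not overlap. It was at 1.01, 1.95 and 1.41 FPKM in WT (mean 1.46 ± 0.473, SD, n = 3). The eIF5A-KO values were 1.97, 2.14 and 2.15 FPKM (mean 2.09 ± 0.104, SD, n = 3). The WT library nearest to the other group was replicate 2, only just below the lowest eIF5A-KO library. The log2 fold change was 0.51 (SE 0.28, interval -0.12 to 1.13, unadjusted p 0.102, adjusted p 0.816, edgeR), so the difference did not pass the test. One member of 25 without overlap stands beside 12.5% of all tested genes, 5.68% higher and 6.83% lower. That share is below the background, so the separation of Wnt9a is no result about the Wnt genes.

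Wnt11, a ligand of the non-canonical branch, was at 2.29, 0.901 and 0.991 FPKM in WT and at 1.44, 1.74 and 1.57 in eIF5A-KO. Again WT replicate 1 was the highest library and the other WT libraries the lowest (log2 fold change 0.18, SE 0.36). Without WT replicate 1 the log2 fold change was 0.74 with an unadjusted p of 0.0168 and an adjusted p of 0.361 (edgeR). Without WT replicate 2 it was -0.060. Wnt2b, a relative of Wnt2, was at 1.14, 0.824 and 0.460 FPKM in WT and at 0.390, 0.547 and 0.484 in eIF5A-KO. WT replicate 3 lay among the eIF5A-KO values, and the log2 fold change of -0.77 (SE 0.38, interval -1.62 to 0.07) was the furthest below 0 among the members. Without WT replicate 3 it was -1.05, with an unadjusted p of 0.0167 and an adjusted p of 0.823 (edgeR). Without WT replicate 1 it was -0.44.

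The remaining tested ligands rested on few counts. Wnt6 had 14, 15 and 14 counts in WT and 25, 31 and 12 in eIF5A-KO (log2 fold change 0.67, SE 0.44). Wnt10a had 2, 19 and 7 counts in WT and 22, 13 and 0 in eIF5A-KO, with an interval of -1.79 to 2.57, the widest of all members. Among the ligands not tested, Wnt7b had 57 counts in all, of which 27 were in WT replicate 2, Wnt4 had 33 and Wnt9b 17. Wnt16 had 4 counts in each WT library and 1, 0 and 2 in the eIF5A-KO libraries, lower without overlap but at or near the level of 3 counts that a count of 0 allows (0.159 to 0.194 CPM per library, for counting error only). Wnt10b, Wnt8a, Wnt1 and Wnt7a, with 1 to 7 counts in all, were not measurable at this depth.

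**Figure D2:**
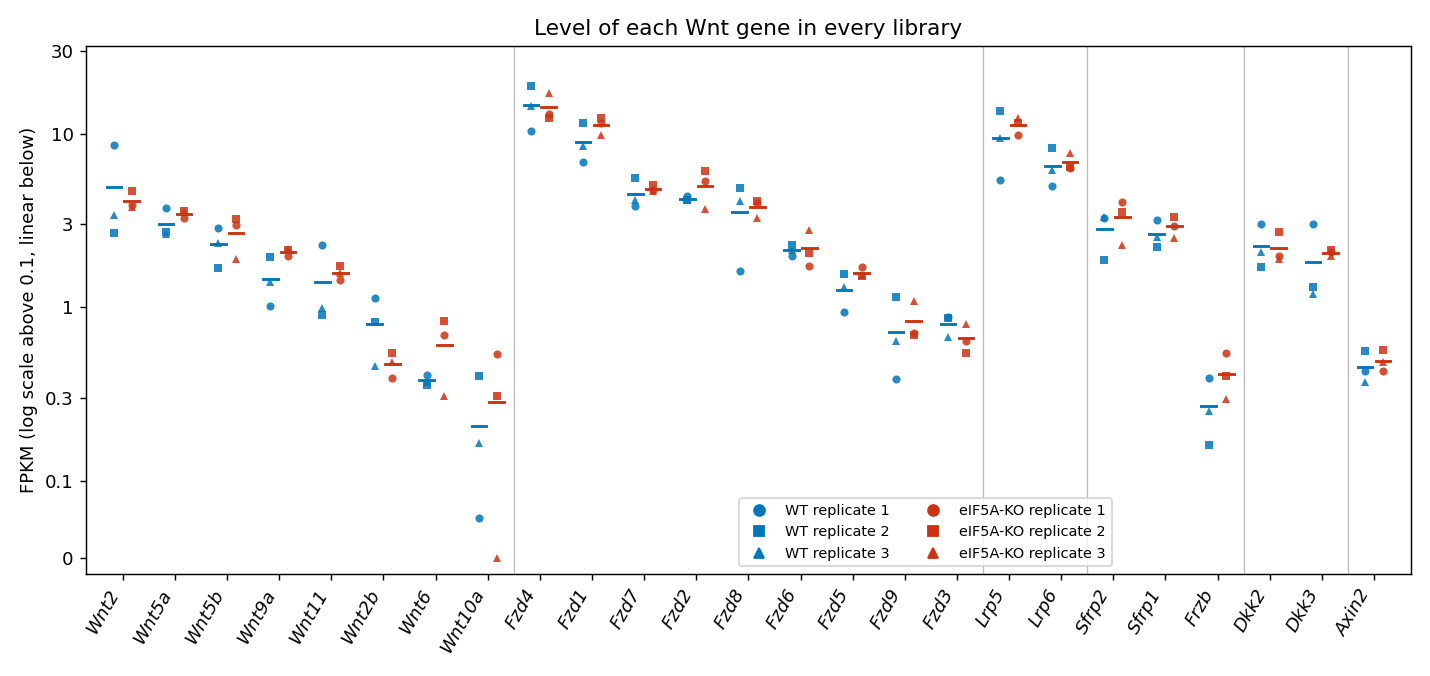
FPKM of the 25 tested members in each library (log scale above 0.1, linear below), WT in blue and eIF5A-KO in red, with a bar at each group's mean and a symbol for each replicate number. Fzd4, Lrp5 and Fzd1 have the highest means, and the groups overlap for every member but Wnt9a.

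The Frizzled receptors, which carry the ligand-binding domain, had a higher summed FPKM than the ligands in every library, although Fzd3, Fzd5, Fzd6, Fzd9 and Fzd10 lay below Wnt2, Wnt5a and Wnt5b in mean FPKM. Fzd4 and Fzd1 made 57.4% of their summed FPKM. Fzd4, also the receptor of norrin in vessels, was at 10.4, 18.9 and 14.5 FPKM in WT and at 13.0, 12.3 and 17.2 in eIF5A-KO (log2 fold change -0.05, SE 0.24, interval -0.59 to 0.48). WT replicates 1 and 2 were the lowest and the highest of the 6 libraries. Fzd1 was at 6.90, 11.5 and 8.52 FPKM in WT and at 11.5, 12.2 and 9.83 in eIF5A-KO. WT replicate 2 lay within the eIF5A-KO range and the other WT libraries below it (log2 fold change 0.31, SE 0.22, interval -0.17 to 0.80, unadjusted p 0.182, edgeR). Without WT replicate 2 the log2 fold change was 0.53, with an unadjusted p of 0.0235 and an adjusted p of 0.514 (edgeR). Without WT replicate 1 it was 0.16.

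Fzd7, a receptor known from satellite cells, was at 3.82, 5.52 and 4.18 FPKM in WT and at 4.72, 5.09 and 4.65 in eIF5A-KO (log2 fold change 0.09, SE 0.19). Fzd2 was at 4.36, 4.13 and 4.13 FPKM in WT and at 5.33, 6.06 and 3.70 in eIF5A-KO (log2 fold change 0.25, SE 0.21), so here the WT libraries were alike and the others spread around them. Fzd8 was at 1.62 FPKM in WT replicate 1 and 3.29 to 4.86 in the 5 other libraries. The log2 fold changes of Fzd3, Fzd5, Fzd6 and Fzd9 were -0.29, 0.31, 0.04 and 0.18. Fzd10, with 40 counts in all, was not tested. Over the 9 tested receptors the median log2 fold change was 0.10, with 7 above 0 and 2 below, and 8 intervals within -1 to 1.

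Lrp5, one of the paired co-receptors of canonical signalling, was at 5.44, 13.6 and 9.48 FPKM in WT and at 9.87, 11.5 and 12.4 in eIF5A-KO. The WT libraries alone spanned more than the whole eIF5A-KO group (log2 fold change 0.23, SE 0.29, interval -0.42 to 0.89). Lrp6, the other co-receptor, was at 4.98, 8.29 and 6.18 FPKM in WT and at 6.36, 6.39 and 7.76 in eIF5A-KO (log2 fold change 0.07, SE 0.21, interval -0.41 to 0.54). Both were lowest in WT replicate 1 and highest in WT replicate 2. Without WT replicate 2 Lrp5 had a log2 fold change of 0.59 with an unadjusted p of 0.0392 and an adjusted p of 0.548 (edgeR), and without WT replicate 1 it was -0.03.

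Among the secreted inhibitors Sfrp2 and Sfrp1 made 89.9% of the summed SFRP family FPKM. Sfrp2 was at 3.25, 1.88 and 3.32 FPKM in WT and at 4.06, 3.55 and 2.28 in eIF5A-KO (log2 fold change 0.22, SE 0.31). Sfrp1 was at 3.20, 2.23 and 2.53 FPKM in WT and at 2.94, 3.33 and 2.52 in eIF5A-KO (log2 fold change 0.13, SE 0.22). Neither separated the groups. Frzb, an inhibitor of the same family, was at 0.393, 0.162 and 0.253 FPKM in WT and at 0.543, 0.400 and 0.296 in eIF5A-KO (log2 fold change 0.62, SE 0.44, interval -0.38 to 1.61). Sfrp4 and Sfrp5 had 64 and 32 counts in all and were not tested. Sfrp5 had 7, 6 and 7 counts in WT and 5, 4 and 3 in eIF5A-KO, lower without overlap but within a few counts.

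Dkk2, a ligand of the LRP co-receptors, was at 3.02, 1.70 and 2.07 FPKM in WT and at 1.96, 2.72 and 1.90 in eIF5A-KO (log2 fold change -0.05, SE 0.28). Dkk3, a divergent member that is not a classical LRP inhibitor, was at 3.01, 1.31 and 1.19 FPKM in WT and at 2.08, 2.14 and 1.98 in eIF5A-KO. The eIF5A-KO values lay close together between the high WT replicate 1 and the other WT libraries (log2 fold change 0.16, SE 0.36). Without WT replicate 1 the log2 fold change was 0.73, with an unadjusted p of 0.0152 and an adjusted p of 0.349 (edgeR). Without WT replicate 3 it was -0.070. Dkk1 had 2 counts in all. Wif1 had 4, 9 and 7 counts in WT and 7, 6 and 0 in eIF5A-KO and was not tested.

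Axin2, a scaffold of the beta-catenin destruction complex at chr11:108920349-108950783 on the plus strand of mm10, had 37, 59 and 35 counts in WT and 39, 53 and 47 in eIF5A-KO. Its level was 0.428, 0.562 and 0.372 FPKM in WT (mean 0.454 ± 0.0977, SD, n = 3). The eIF5A-KO values were 0.429, 0.567 and 0.482 FPKM (mean 0.493 ± 0.0692, SD, n = 3). The ranges overlap over most of their length, and the log2 fold change was 0.11 (SE 0.30, interval -0.57 to 0.78, unadjusted p 0.729, adjusted p 0.976, edgeR). A change of Axin2 beyond those bounds lies outside the 95% interval, and smaller ones lie within it.

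**Figure D3:**
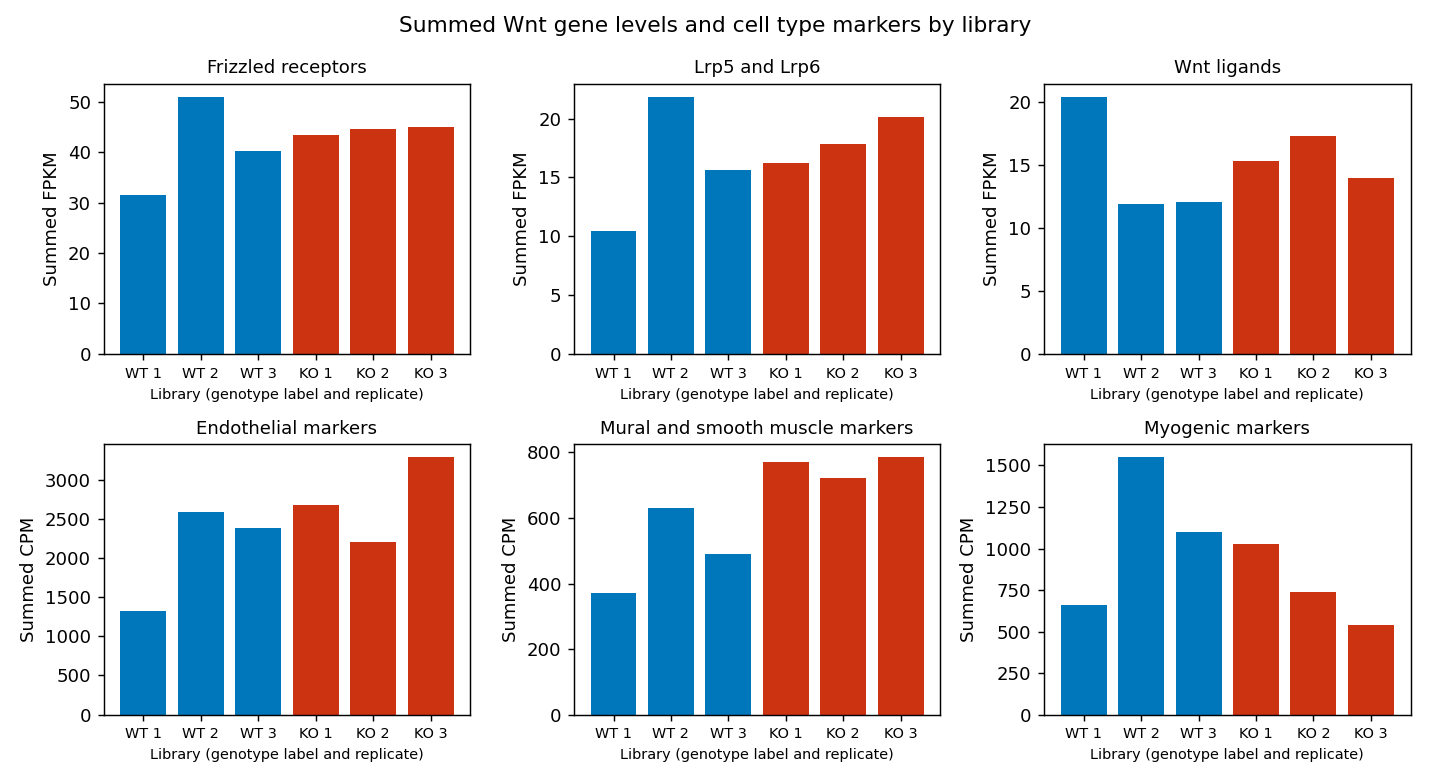
Summed FPKM of 3 roles (upper row) and summed CPM of 3 marker lists (lower row) in each library, WT in blue and eIF5A-KO (KO) in red. Frizzled and LRP sums are lowest in WT replicate 1 and highest in WT replicate 2, the myogenic, mural and endothelial sums have the same order within WT, and the ligand sum is highest in WT replicate 1.

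As over all tested genes, the WT libraries were spread more widely than those labelled eIF5A-KO for many members. The standard deviation of CPM was larger in WT for 17 of the 25 tested members, beside 64.6% of all tested genes. Summed by role, the Frizzled receptors were at 31.5, 51.1 and 40.2 FPKM in WT replicates 1 to 3 and at 43.4, 44.6 and 45.0 in eIF5A-KO. The co-receptor sum was 10.4, 21.9 and 15.7 FPKM in WT and 16.2, 17.9 and 20.1 in eIF5A-KO. The eIF5A-KO sums of both lie inside the WT range. The ligand sum had another order, with 20.5, 11.96 and 12.1 FPKM in WT and 15.4, 17.3 and 13.99 in eIF5A-KO, again inside the WT range.

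WT replicate 1 was the lowest library for 9 of the 25 members, 6 Frizzled receptors, both co-receptors and Wnt9a, and the highest for 7, which were Wnt2, Wnt5a, Wnt11, Wnt2b, Dkk2, Dkk3 and 1 receptor, Fzd3. Over all tested genes it was the lowest for 27.9% and the highest for 27.4%. WT replicate 2 was the highest for 6 members, 4 Frizzled receptors and both co-receptors, and the lowest for 7, beside 24.6% and 22.2% of all tested genes. The part of the mitochondrial share or of the marker lists in this order of libraries was not tested.

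**Figure D4:**
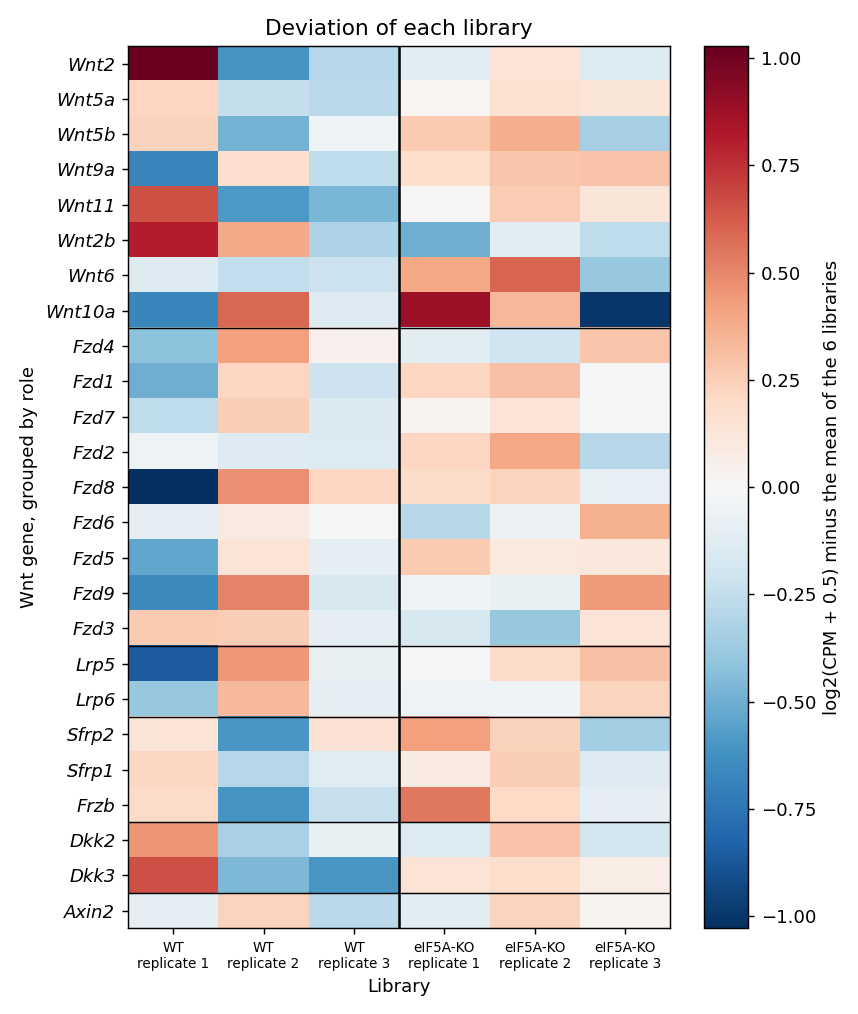
Colour gives log2(CPM + 0.5) of each tested member in each library minus its mean over the 6 libraries, red above and blue below the mean, with members ordered by role. Most receptors and both co-receptors are blue in WT replicate 1, where Wnt2, Wnt11, Wnt2b and Dkk3 are red.

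Marker genes of the cell types such a culture can hold were measured in the same libraries. Of 10 myogenic markers 9 had a negative log2 fold change (median -0.57), 3 with an unadjusted p under 0.05 (Pax7, Myog and Chrna1, the last also lower without overlap), and their summed level was 662 to 1549 CPM in WT and 538 to 1027 in eIF5A-KO. All 9 mural and smooth muscle markers had a positive log2 fold change (median 0.50), 4 with an unadjusted p under 0.05 and Myh11, a smooth muscle myosin, with an adjusted p of 0.0486 (edgeR). That call was lost in 11 of 16 alternatives (adjusted p 3.72e-10 to 0.315 over all of them), while its log2 fold change was 1.06 or more in each. The summed mural level was 372 to 630 CPM in WT and 723 to 785 in eIF5A-KO, without overlap. All 8 endothelial markers were also positive (median 0.38, 1 with an unadjusted p under 0.05), with sums of 1318 to 2595 CPM in WT and 2204 to 3288 in eIF5A-KO, and so were all 4 Schwann cell markers (median 0.42, 2 with an unadjusted p under 0.05, sums of 182 to 261 and 300.3 to 334 CPM, without overlap). Of 12 fibroblast and fibro-adipogenic markers 5 were positive (median -0.12, 2 higher with an unadjusted p under 0.05), with sums of 3578 to 4160 and 3641 to 4376 CPM. Of 8 macrophage and leukocyte markers 6 were positive (median 0.43, 1 with an unadjusted p under 0.05, sums of 53.8 to 127 and 55.6 to 156 CPM). Of 4 tenocyte markers 3 were negative (median -0.28, 1 lower with an unadjusted p under 0.05, sums of 23.4 to 32.4 and 16.8 to 23.7 CPM). No marker of these lists was at 0 in every library, though some had only a few counts. The part of these cells in the Wnt values was not tested.

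Another 69 genes of the pathway, from Wnt secretion to nuclear factors and targets, were read in the same fit, and 56 were tested. Of these 28 had a positive and 28 a negative log2 fold change (median -0.00). None had an adjusted p under 0.05 (edgeR), 3 had an unadjusted p under 0.05 with a higher level in eIF5A-KO, and 0 with a lower one, beside 2.74% and 4.02% of all tested genes. The 3 were Lgr6, Rspo3 and Ccn5. Without overlap between groups were 8 of these 56 genes (14.3%), with Rspo3, Lgr6, Ror2, Csnk1e and Tcf7l1 higher and Lgr4, Pygo1 and Tnfrsf19 lower, beside 12.5% of all tested genes.

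Lgr6, a receptor for R-spondins, which raise Wnt signalling by sparing Frizzled and LRP from degradation, was at 5.88, 4.56 and 4.19 CPM in WT, a mean of 4.88 ± 0.888 (SD, n = 3). In eIF5A-KO it was at 11.99, 10.1 and 9.01 CPM, a mean of 10.4 ± 1.51 (SD, n = 3), and the groups did not overlap. Its log2 fold change was 1.09 (SE 0.24, interval 0.55 to 1.62, unadjusted p 0.00126, adjusted p 0.362, edgeR). The call depends on the tool and on the filter: DESeq2 gave an adjusted p of 0.0131, and edgeR without a filter on low counts gave 0.0201. Rspo3, an R-spondin, was at 3.17, 2.44 and 2.83 CPM in WT and at 5.02, 5.68 and 4.59 in eIF5A-KO, also without overlap (log2 fold change 0.86, SE 0.26, unadjusted p 0.00873, adjusted p 0.495, edgeR). Ccn5, listed by its older name Wisp2 and counted among the targets, was at 2.26, 3.77 and 2.95 CPM in WT and at 8.81, 7.82 and 3.57 in eIF5A-KO. Here eIF5A-KO replicate 3 lay within the WT range (log2 fold change 1.16, SE 0.37, unadjusted p 0.0119, adjusted p 0.530, edgeR). For Ccn5 edgeR without the filter gave an adjusted p of 0.0337, and DESeq2 gave 0.191. Without eIF5A-KO replicate 1 the log2 fold change was 0.93, and the unadjusted p was not under 0.05 (edgeR).

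By list, the R-spondin axis had 4 of 9 genes tested, 2 with a positive and 2 with a negative log2 fold change, and Lgr4, its most abundant receptor here, was at 18.5, 23.0 and 18.4 CPM in WT and 15.2, 18.2 and 17.9 in eIF5A-KO, lower without overlap (log2 fold change -0.22, SE 0.18). Of 3 genes of Wnt secretion 2 were tested, 1 in each direction. Of 13 non-canonical receptors and polarity genes, all tested, 8 were positive (median 0.17). Of 13 genes of cytoplasmic signalling and the destruction complex, all tested, 4 were positive (median -0.03). Of 12 tested nuclear factors 7 were positive (median 0.03), of 7 tested targets besides Axin2 4 were positive (median 0.10), and of 5 tested further modulators 2 were positive (median -0.02).

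Exons of 6 of the 25 tested members overlap another annotated gene: Wnt5a, Wnt11, Fzd6, Fzd5, Sfrp2 and Axin2. The library kit named in the labels does not mark the strand, so reads from an overlapping gene cannot be told apart from the member's own.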

How the data were processed

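Total RNA was extracted with TRIzol and libraries were made with an NEBNext Ultra kit. Per the labels and the methods of the study, the authors aligned reads to mm10 with HISAT and deposited raw counts per gene. The authors also deposited FPKM, whose denominators differ from the library totals, so they were scaled between libraries. Strand use in counting is not given in the sources used here. Counts of the 14679 genes that passed filterByExpr were tested with edgeR 4.0.16 in R 4.3.3 (TMM factors, quasi-likelihood fit, prior count 0.125, Benjamini-Hochberg adjustment over all tested genes), 3 WT against 3 eIF5A-KO libraries. SE is the log2 fold change divided by the root of F. The test was checked on simulated counts. Member levels are given as FPKM, and other genes, marker sums and overlap between groups as CPM with TMM factors. Alternatives used DESeq2 1.42.0, limma 3.58.1, other factors and filters, the replicate number as a block, and each library left out. The rule for members used gene symbols and no measured values, but the rule, the lists and the alternatives were set with earlier results of these data known. The rule for naming took the 2 members of each role with the highest mean FPKM and members whose groups did not overlap at a mean of at least 0.5 CPM. Values by library of other members were added after their values were seen.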

Additional observations from a re-analysis of the deposited data

How the results depend on the processing

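Of 399 member values under 16 alternatives, 0 had an adjusted p under 0.05. The median log2 fold change of the members ranged from 0.10 (without WT replicate 3) to 0.24 (without WT replicate 2). Outside leaving out a library, 1 member changed sign, Wnt10a (-0.50 with limma-voom), and when single libraries were left out 14 of 25 did, with these lowest and highest log2 fold changes: Wnt2 (-0.56 to 0.44), Wnt11 (-0.060 to 0.74), Wnt10a (-0.46 to 1.32), Fzd4 (-0.24 to 0.18), Fzd7 (-0.0055 to 0.26), Fzd8 (-0.23 to 0.40), Fzd6 (-0.17 to 0.19), Fzd9 (-0.10 to 0.68), Lrp5 (-0.034 to 0.59), Lrp6 (-0.078 to 0.29), Sfrp2 (-0.0020 to 0.43), Dkk2 (-0.22 to 0.22), Dkk3 (-0.070 to 0.73) and Axin2 (-0.017 to 0.29). The number of members higher with an unadjusted p under 0.05 ranged from 0 to 3 when a library was left out, with 2 without WT replicate 1 (Wnt11 and Dkk3), 3 without WT replicate 2 (Wnt9a, Fzd1 and Lrp5) and 1 without eIF5A-KO replicate 3 (Wnt6). Over all tested genes 4.72%, 3.97% and 3.65% were higher in these fits. The number lower ranged from 0 to 2, with 2 without WT replicate 3 (Wnt2b and Fzd10), and was 1 without a filter (Wnt2b), where 3.39% and 3.81% of all tested genes were lower. Of the other pathway genes 2 had an adjusted p under 0.05 without a filter and 1 with DESeq2. Those lower with an unadjusted p under 0.05 numbered 1 without a filter and with DESeq2 (Tcf7), 1 with at least 10 counts in every library, limma-voom and limma on log2(FPKM + 1) or log2(FPKM + 0.1) (Tnfrsf19), and 0 to 4 when a library was left out, the 4 without WT replicate 1, where 5.44% of all tested genes were lower. Those higher numbered up to 5, without WT replicate 2. The cause was not tested.

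Correlations of same-numbered deviations from the group means were 0.08, -0.16 and 0.11, beside -0.27 to 0.27 for differently numbered pairs. They show no pairing by replicate number, but with 3 libraries per group they cannot exclude one. With the replicate block the member median was 0.21, with 0 adjusted calls among members, and 24 genes of the whole table had an adjusted p under 0.05 against 3. The count over all genes also moved to 249 without a filter and to 88 with DESeq2. It was 0 in 6 alternatives that kept every library (DESeq2 size factors, library size alone, at least 10 counts in every library, limma-voom and both limma fits of FPKM) and in 5 of the 6 fits that left a library out, and 56 without WT replicate 1. Of the 25 tested members 6 had under 100 counts in every library.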
